A study of Mus musculus with 16 samples.

Results

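The nuclear-encoded subunits of respiratory complexes II to V were followed across mouse ventricles that differed in lactation and in Npr1, the gene of the guanylyl cyclase receptor for the heart's natriuretic peptides. The members were the genes Sdha, Sdhb, Sdhc, Sdhd and Cyc1 and every gene whose symbol begins with Uqcr, Cox4i, Cox5, Cox6, Cox7, Cox8 or Atp5, each represented by its brightest probe. The rule matched 62 genes of the gene table, of which 14 were pseudogenes without a probe. The other 48 had a probe, among 21154 genes in all: 4 of complex II, 9 of complex III, 18 of complex IV and 17 of complex V. All but Cox8c, the testis form of subunit 8, had a signal well above background throughout 1 group or more, so 47 of the 48 were tested among 14060 genes. Cox8c was well above background on 0 of 16 arrays.

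One-colour Agilent arrays measured total RNA from ventricular tissue of female mice, 1 mouse per array and 4 independent mice per group. The groups were 2-week lactating Npr1-/- mice, 2-week lactating Npr1+/+ mice, nulliparous Npr1-/- mice and nulliparous Npr1+/+ mice. Npr1-/- mice are labelled as knockouts and Npr1+/+ mice as wild-type. The strain, the age and the construction of the knockout allele are not stated in the sources used here. The same RNA pool holds every cell type of the ventricle. Lactating mice are compared with nulliparous mice, so lactation cannot be told apart here from the pregnancy and birth before it. A rise or fall with lactation is a difference between these states. The comparisons ask how lactation changes the heart in each genotype and whether loss of the receptor alters that change, since the series concerns excessive growth of the lactating heart when natriuretic peptide signalling is impaired.

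The respiratory chain carries electrons from fuel oxidation to oxygen and stores the energy as a proton gradient across the inner mitochondrial membrane. Complex II (succinate dehydrogenase) passes electrons from succinate to ubiquinone, complex III (the cytochrome bc1 complex) passes them on to cytochrome c, complex IV (cytochrome c oxidase) reduces oxygen, and complex V (ATP synthase) uses the gradient to make ATP. The heart has one of the highest mitochondrial contents of any tissue, and several complex IV subunits exist there as a heart and skeletal muscle form beside a widely expressed form.

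Throughout, a level is the log2 of a probe's signal over the 75th percentile of its array, and a difference is a difference of mean levels between groups, with the standard error (SE) from a linear model over all genes (limma). Calls were made where p, adjusted by the Benjamini-Hochberg method across the 14060 genes, was under 0.05. Across the arrays the signal's 75th percentile was between 165 and 347 and 48.2% to 58.6% of probes were well above background. That percentile differed by state, at 295 to 347 in lactating Npr1-/- mice and 278 to 309 in lactating Npr1+/+ mice. It was 165 to 284 in nulliparous Npr1-/- mice, with replicate 4 the highest at 284, and 198 to 221 in nulliparous Npr1+/+ mice. Signal strength thus went with lactation, and its part in the differences was not tested. The Npr1 probe was well above background on 9 of 16 arrays, 3 of lactating Npr1-/- mice, 3 of lactating Npr1+/+ mice, 2 of nulliparous Npr1-/- mice and 1 of nulliparous Npr1+/+ mice, so it does not check the genotype labels. All 11 cardiomyocyte markers were well above background. Replicate 4 of the nulliparous Npr1-/- group stood apart from its group. On the first principal component of all genes, which held 53.7% of the variance, it lay at 14.5, against -46.9 to -39.3 for the other nulliparous arrays and 27.6 to 41.9 for the lactating arrays, and the member counts in Npr1-/- mice are given with and without it.

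Subunit probes were bright, 43 of 47 lying among the brightest 5% of the genes tested and 25 among the brightest 1%. Brightness depends on the probe as well as on the transcript, so levels are compared between groups and not between genes. The 3 members with a mean level under 4 were the tissue-restricted forms Cox4i2, Cox6b2 and Cox7b2, the last of which was well above background on 14 of 16 arrays. Mean levels ran from 6.88 to 9.09 in complex II, from 7.18 to 9.28 in complex III, from 5.65 to 9.81 in complex V, and in complex IV up to 10.48 for Cox6a2.

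Under 75th percentile scaling some subunits were higher and others lower with lactation in each genotype. The balance between both directions depended on how arrays were scaled. In Npr1-/- mice 8 of 47 members rose and 17 fell with lactation, with a median difference of -0.12, against a median of 0.06 over all genes tested. In Npr1+/+ mice 15 rose and 3 fell, with a median difference of 0.07, against 0.10 over all genes. That Npr1+/+ median was 0.03 without lactating replicate 1, 0.04 without nulliparous replicate 3 and 0.12 without nulliparous replicate 1, and 0.01 with array weights. The share of members called in Npr1-/- mice was 53.2%, where 44.1% of all genes were called. In Npr1+/+ mice it was 38.3%, where 50.3% of all genes were called. By direction, 17.0% of members rose and 36.2% fell in Npr1-/- mice, beside 25.5% and 18.6% of all genes. In Npr1+/+ mice 31.9% rose and 6.38% fell, beside 31.8% and 18.5% of all genes, so the share that rose was near that of the background. In whole ventricle RNA, fewer cells of a type and less RNA per cell cannot be told apart.

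**Figure D1:**
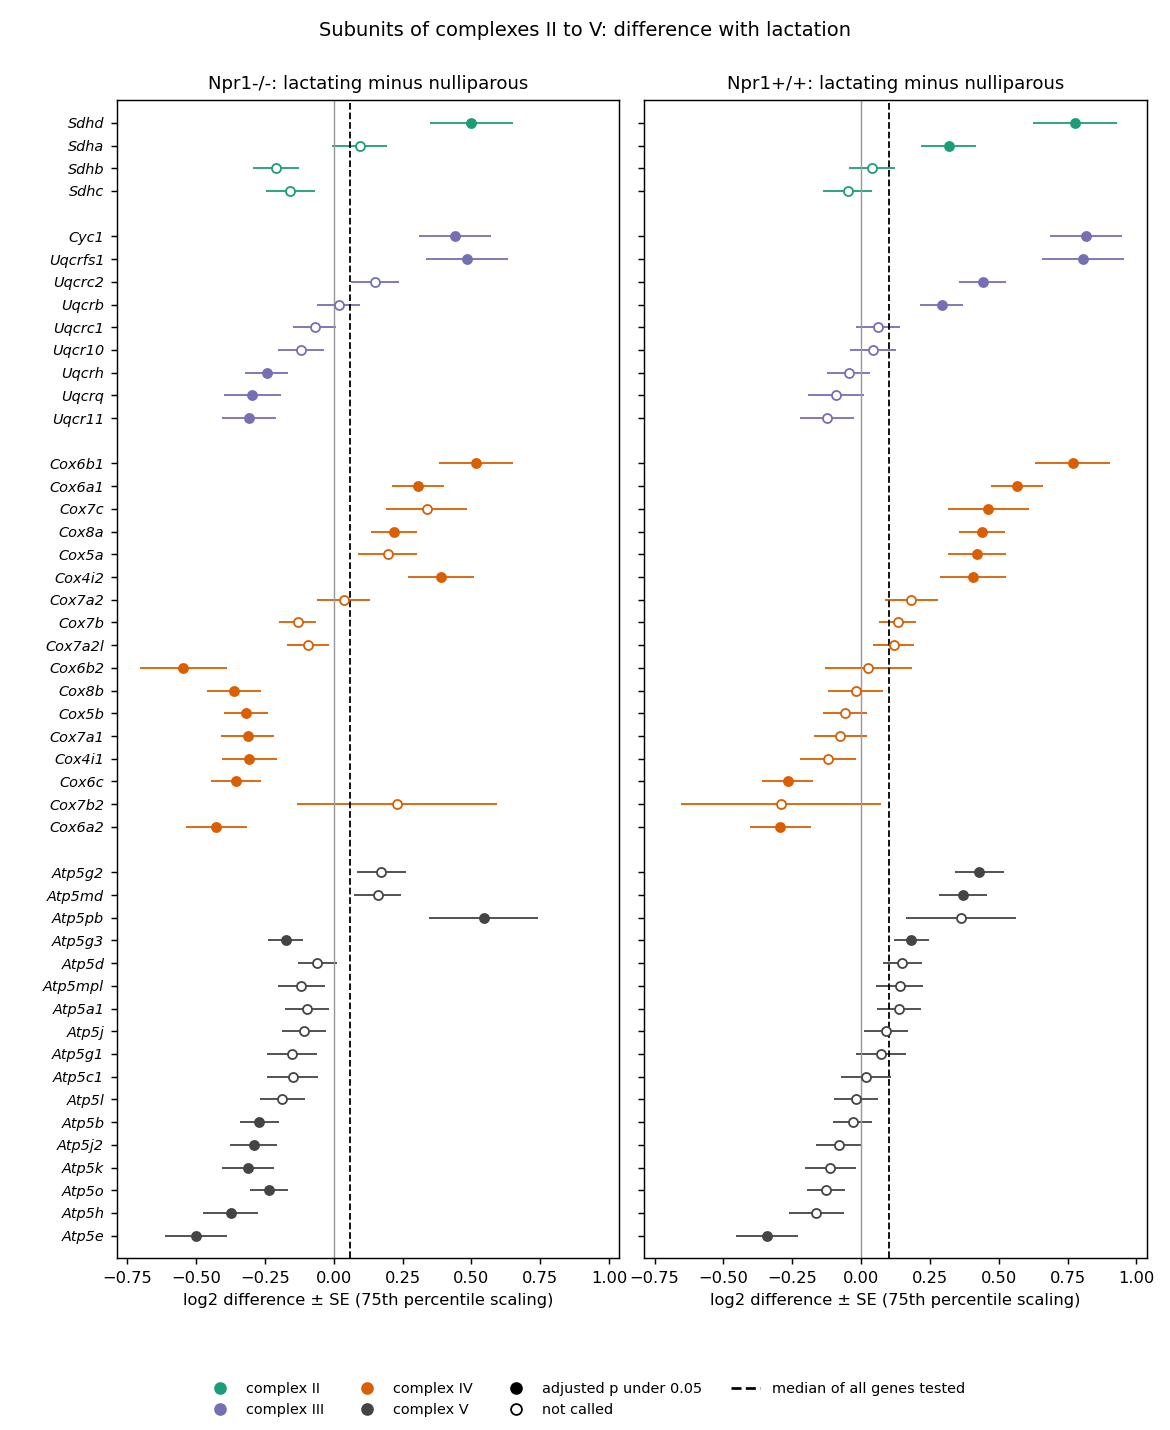
Log2 difference ± SE (x axis) of the 47 tested subunits (rows, grouped by complex) between 4 lactating and 4 nulliparous mice, in Npr1-/- mice on the left and Npr1+/+ mice on the right, under 75th percentile scaling. Filled points have an adjusted p under 0.05, the solid line marks 0 and the dashed line the median over all 14060 genes. In Npr1-/- mice 17 filled points lie below 0 and 8 above it, and in Npr1+/+ mice 3 lie below and 15 above.

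Scaling to the array median in place of the 75th percentile moved the median of all genes by 0.18 in both genotypes, to 0.24 in Npr1-/- mice and 0.28 in Npr1+/+ mice. Under it 13 members rose and 1 fell in Npr1-/- mice, beside 37.7% and 9.92% of all genes, and 23 rose and 0 fell in Npr1+/+ mice, beside 43.1% and 10.6% of all genes (limma, with 27 of the 47 at an unadjusted p under 0.05). Under quantile normalization 14 rose and 3 fell in Npr1-/- mice, beside 26.5% and 18.7% of all genes, and 16 rose and 1 fell in Npr1+/+ mice, beside 30% and 21.1%. The member median in Npr1-/- mice was 0.06 under median scaling and 0.05 under quantile normalization, so its sign turned under each. Relative to the median of all genes it was -0.18 under both the 75th percentile and the array median, and -0.03 under quantile normalization. In Npr1+/+ mice the member median relative to all genes was -0.03 under the first 2 scalings and 0.03 under quantile normalization. Of the 47 members, 32 lay below the all-gene median in Npr1-/- mice and 25 in Npr1+/+ mice under the first 2 scalings, and 24 in Npr1-/- mice and 20 in Npr1+/+ mice under quantile normalization.

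**Figure D2:**
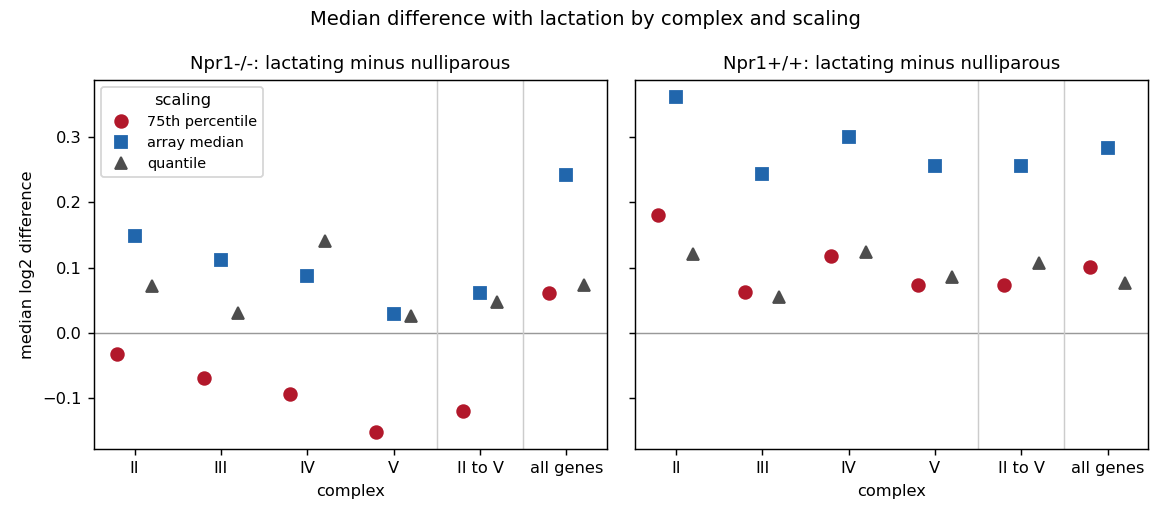
Median log2 difference between lactating and nulliparous mice (y axis) for each complex, for the 47 subunits together and for all 14060 genes tested (x axis), in Npr1-/- mice on the left and Npr1+/+ mice on the right. Circles give scaling to the 75th percentile, squares to the array median and triangles quantile normalization. In Npr1-/- mice the complex medians lie below 0 only under the 75th percentile, from -0.15 for complex V to -0.03 for complex II.

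Calls differed in how far they depended on the scaling. Median scaling moves every gene upwards with lactation, so it could end falls more readily than rises, and the rises it kept are no sign of stability. Of the falls, it kept that of Atp5e in Npr1-/- mice. The other 16 falls in Npr1-/- mice (Atp5b, Atp5g3, Atp5h, Atp5j2, Atp5k, Atp5o, Cox4i1, Cox5b, Cox6a2, Cox6b2, Cox6c, Cox7a1, Cox8b, Uqcr11, Uqcrh and Uqcrq) and the 3 in Npr1+/+ mice (Atp5e, Cox6a2 and Cox6c) were not called under it. Quantile normalization ended the call of Atp5e in both genotypes. It kept the falls of Cox5b (-0.21, adjusted p = 0.0278 in limma), Cox6b2 (-0.53, adjusted p = 0.016) and Cox6c (-0.28, adjusted p = 0.0136) in Npr1-/- mice and of Cox6c (-0.36, adjusted p = 0.00281) in Npr1+/+ mice. It turned the sign of 7 other falls in Npr1-/- mice and of Cox6a2 in Npr1+/+ mice, and among the rises it ended that of Atp5g3 in Npr1+/+ mice. Left out in turn, the 16 arrays ended the call of 12 of the 25 members called in Npr1-/- mice and of 5 of the 18 called in Npr1+/+ mice. A fit of the 8 Npr1-/- arrays alone called 13 members, against 25 in the fit of all 16. Without nulliparous Npr1-/- replicate 4, 12 members rose and 19 fell in Npr1-/- mice, beside 30.6% and 22.7% of all genes, with a median of -0.15. By complex, 1 rose and 1 fell then in II, 3 and 3 in III, 6 and 7 in IV, and 2 and 8 in V. Of the 25 members called in Npr1-/- mice, that array deviated from the other 3 of its group towards the lactating mice in 23, by a median of 0.73 of the lactation difference. Within the slides, which held 2 arrays of every group each, the member median in Npr1-/- mice was -0.14 on slide 1 and -0.12 on slide 2, and in Npr1+/+ mice 0.07 and 0.11.

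Across genotypes, 7 members rose with lactation in both (Cox4i2, Cox6a1, Cox6b1, Cox8a, Cyc1, Sdhd and Uqcrfs1) and 3 fell in both under 75th percentile scaling (Atp5e, Cox6a2 and Cox6c). A further 7 rose in Npr1+/+ mice without a call in Npr1-/- mice, namely Atp5g2, Atp5md, Cox5a, Cox7c, Sdha, Uqcrb and Uqcrc2. Atp5pb rose in Npr1-/- mice without a call in Npr1+/+ mice, and 13 members fell in Npr1-/- mice only by the call. The shares of all genes called in both genotypes, or in a single genotype, were not computed. These counts are therefore a list of members and no result about the subunits as a group. None of the differences between genotypes passed the test of the difference itself, given below. The promoters of every member that rose in both genotypes and had a window are printed here, with that of Cox8b, the muscle partner of Cox8a. RefSeq promoter windows (GRCm38.p6, 250 bases before to 50 after the start) were found for 36 of the 47 members, and Cyc1, Cox4i2 and Cox6a2 are named only. Capitals mark matches on either strand to motifs of factors known to act on respiratory genes: NRF-1 (GCGCA, any base, then GCGC), GABP (CCGGAAG), ERR (AAGGTCA) and YY1 (AA, any base, then ATGGCGG).
Sdhd, chr9:50603800-50604099, minus strand: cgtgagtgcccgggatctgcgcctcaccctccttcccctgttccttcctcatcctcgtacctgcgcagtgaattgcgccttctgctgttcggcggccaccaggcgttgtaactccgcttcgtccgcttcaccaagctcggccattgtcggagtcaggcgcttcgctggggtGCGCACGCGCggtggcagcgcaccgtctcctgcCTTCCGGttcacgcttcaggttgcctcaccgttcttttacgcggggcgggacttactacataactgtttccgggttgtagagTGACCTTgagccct
Uqcrfs1, chr13:30545267-30545566, minus strand: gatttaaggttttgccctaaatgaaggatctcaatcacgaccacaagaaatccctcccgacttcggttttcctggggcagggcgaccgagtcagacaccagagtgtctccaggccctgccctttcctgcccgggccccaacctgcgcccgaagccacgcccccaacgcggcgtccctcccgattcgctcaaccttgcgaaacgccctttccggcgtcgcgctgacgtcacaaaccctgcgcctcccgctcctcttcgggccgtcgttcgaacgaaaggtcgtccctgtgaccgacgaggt
Cox6a1, chr5:115348909-115349208, minus strand: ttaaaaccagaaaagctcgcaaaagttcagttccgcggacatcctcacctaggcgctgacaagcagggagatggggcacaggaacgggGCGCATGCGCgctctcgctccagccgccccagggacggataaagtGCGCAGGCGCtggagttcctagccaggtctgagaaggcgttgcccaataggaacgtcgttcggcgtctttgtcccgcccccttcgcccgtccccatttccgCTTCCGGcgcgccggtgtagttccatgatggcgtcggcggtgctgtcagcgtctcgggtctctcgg
Cox6b1, chr7:30626065-30626364, minus strand: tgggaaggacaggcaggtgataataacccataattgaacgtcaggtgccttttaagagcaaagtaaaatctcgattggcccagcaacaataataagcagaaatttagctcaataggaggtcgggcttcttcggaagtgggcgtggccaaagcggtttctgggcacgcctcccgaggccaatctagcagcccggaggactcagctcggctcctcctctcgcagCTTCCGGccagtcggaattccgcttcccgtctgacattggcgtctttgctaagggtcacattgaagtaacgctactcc
Cox8a, chr19:7217567-7217866, minus strand: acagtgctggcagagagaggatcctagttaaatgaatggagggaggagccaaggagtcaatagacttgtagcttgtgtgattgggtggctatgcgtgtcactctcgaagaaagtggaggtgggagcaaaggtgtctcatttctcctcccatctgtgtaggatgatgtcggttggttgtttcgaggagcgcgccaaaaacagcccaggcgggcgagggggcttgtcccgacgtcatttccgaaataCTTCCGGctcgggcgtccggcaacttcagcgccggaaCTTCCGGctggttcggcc
Cox8b, chr7:140900397-140900696, minus strand: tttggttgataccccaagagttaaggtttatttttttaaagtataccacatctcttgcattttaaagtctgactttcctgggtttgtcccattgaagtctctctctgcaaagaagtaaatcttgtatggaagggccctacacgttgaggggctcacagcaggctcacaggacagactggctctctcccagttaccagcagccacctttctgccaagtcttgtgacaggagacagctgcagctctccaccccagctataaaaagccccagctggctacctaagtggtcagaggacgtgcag
The NRF-1 motif was present in 10 of 36 members (27.8%), against 5.19% of 27025 genes with a window, and the GABP motif in 13 (36.1%), against 9.93%. The ERR motif was present in 5 members (13.9%), against 5.38%, YY1 in 2 (5.56%), against 1.59%, and MEF2, the muscle factor, in 0, against 3.7%. The letters searched for MEF2 are not given in the sources used here. At so low a share, 0 of 36 members is no sign of a lack. No matches overlapped. Sdhd holds one match each to NRF-1, GABP and ERR, Cox6a1 a pair to NRF-1 and one to GABP, Cox6b1 one to GABP, and Cox8a a pair to GABP, while Uqcrfs1 and Cox8b hold none of these motifs in the window. A match is a description of the letters and not a site of binding.

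Complex II had 4 members, of which 1 rose and 0 fell in Npr1-/- mice (limma, 2 at an unadjusted p under 0.05) and 2 rose and 0 fell in Npr1+/+ mice, under both the 75th percentile and median scalings. The median was -0.03 in Npr1-/- mice and 0.18 in Npr1+/+ mice. Of all genes, 25.5% rose and 18.6% fell in Npr1-/- mice under the 75th percentile, and 31.8% and 18.5% in Npr1+/+ mice. Under median scaling these shares were 37.7% and 9.92% in Npr1-/- mice and 43.1% and 10.6% in Npr1+/+ mice. A complex has few members, so a count near these shares is no result about that complex. Sdhd, a membrane anchor that holds part of the ubiquinone site, had levels of 7.47, 7.64, 7.50 and 7.46 in lactating Npr1-/- mice, against 7.10, 6.90, 6.58 and 7.49 in nulliparous Npr1-/- mice. Its levels were 7.74, 7.51, 7.56 and 7.46 in lactating Npr1+/+ mice, against 6.96, 6.90, 6.62 and 6.69 in nulliparous Npr1+/+ mice. Every lactating Npr1+/+ mouse lay above every nulliparous one, whereas in Npr1-/- mice nulliparous replicate 4 lay among the lactating mice. The difference was 0.50 ± 0.15 (SE, adjusted p = 0.0157) in Npr1-/- mice and 0.78 ± 0.15 (SE, adjusted p = 0.000894) in Npr1+/+ mice.

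Sdha, the flavoprotein that oxidises succinate, had levels of 6.95, 6.87, 6.97 and 6.93 in lactating Npr1-/- mice, against 6.91, 6.78, 6.53 and 7.12 in nulliparous Npr1-/- mice. In the other genotype they were 7.14, 7.01, 7.05 and 6.97 in lactating Npr1+/+ mice, against 6.79, 6.76, 6.68 and 6.67 in nulliparous Npr1+/+ mice. The Npr1+/+ groups did not overlap and Sdha rose there, by 0.32 ± 0.10 (SE, adjusted p = 0.0164). In Npr1-/- mice the groups overlapped and the difference was 0.09 ± 0.10 (SE, adjusted p = 0.466). Sdhb, the iron-sulfur subunit, had levels of 9.05, 9.0, 8.99 and 9.06 in lactating Npr1-/- mice, against 9.22, 9.21, 9.34 and 9.16 in nulliparous Npr1-/- mice. The lactating Npr1-/- mice all lay below the nulliparous ones, with a difference of -0.21 ± 0.08 (SE, adjusted p = 0.0533). In Npr1+/+ mice its groups overlapped, at 0.04 ± 0.08 (SE, adjusted p = 0.706). A second, dimmer Sdhb probe gave 0.79 in Npr1-/- mice and 1.14 in Npr1+/+ mice, so Sdhb is uncertain. Sdhc, the other anchor, was called in neither genotype, with differences of -0.16 ± 0.09 in Npr1-/- mice and -0.05 ± 0.09 in Npr1+/+ mice.

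In complex III, 2 of 9 members rose and 3 fell in Npr1-/- mice (median -0.07), and 4 rose and 0 fell in Npr1+/+ mice (limma, 4 at an unadjusted p under 0.05; median 0.06). Under median scaling 3 rose in Npr1-/- mice and 4 in Npr1+/+ mice, and 0 fell in either. Under the 75th percentile 25.5% of all genes rose and 18.6% fell in Npr1-/- mice, and 31.8% and 18.5% in Npr1+/+ mice. Under median scaling these shares were 37.7% and 9.92% in Npr1-/- mice and 43.1% and 10.6% in Npr1+/+ mice. The members with the largest rise in Npr1+/+ mice were both redox subunits. Cyc1, the haem protein cytochrome c1, had levels of 8.82, 8.94, 8.61 and 8.76 in lactating Npr1-/- mice, against 8.36, 8.33, 8.0 and 8.69 in nulliparous Npr1-/- mice. In the other genotype Cyc1 had 9.07, 8.93, 8.83 and 8.71 in lactating Npr1+/+ mice, against 8.04, 8.24, 7.99 and 8.01 in nulliparous Npr1+/+ mice. Wild-type groups did not overlap, and among nulliparous Npr1-/- mice replicate 4 was again the high one. Cyc1 rose by 0.44 ± 0.13 (SE, adjusted p = 0.0144) in Npr1-/- mice and 0.82 ± 0.13 (SE, adjusted p = 0.000267) in Npr1+/+ mice.

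Uqcrfs1, the Rieske iron-sulfur protein, had levels of 7.77, 7.79, 7.75 and 7.64 in lactating Npr1-/- mice, against 7.25, 7.20, 6.81 and 7.74 in nulliparous Npr1-/- mice. Its wild-type levels were 8.02, 7.86, 7.87 and 7.67 in lactating Npr1+/+ mice, against 7.15, 7.14, 6.92 and 6.99 in nulliparous Npr1+/+ mice. The pattern over arrays was that of Cyc1, with overlap only through nulliparous Npr1-/- replicate 4. Uqcrfs1 rose by 0.48 ± 0.15 (SE, adjusted p = 0.0166) in Npr1-/- mice and 0.81 ± 0.15 (SE, adjusted p = 0.000616) in Npr1+/+ mice. Uqcrc1, the first core protein, had levels of 7.29, 7.25, 7.09 and 7.21 in lactating Npr1-/- mice, against 7.25, 7.28, 7.36 and 7.24 in nulliparous Npr1-/- mice. Its Npr1+/+ values were 7.36, 7.06, 7.13 and 7.06 in lactating Npr1+/+ mice, against 7.15, 7.08, 7.02 and 7.11 in nulliparous Npr1+/+ mice. The groups overlapped in both genotypes and neither difference was called, at -0.07 ± 0.08 in Npr1-/- mice and 0.06 ± 0.08 in Npr1+/+ mice. Its partner Uqcrc2 rose in Npr1+/+ mice by 0.44 ± 0.09 (SE, adjusted p = 0.000939), with 0.15 ± 0.09 and no call in Npr1-/- mice.

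Uqcrb, the ubiquinone-binding subunit, rose in Npr1+/+ mice by 0.29 ± 0.08 (SE, adjusted p = 0.0064), against 0.02 ± 0.08 and no call in Npr1-/- mice. Of the small subunits, Uqcrh, Uqcrq and Uqcr11 fell in Npr1-/- mice under the 75th percentile and under neither other scaling, and were not called in Npr1+/+ mice. Uqcr10 was called in neither genotype (-0.12 in Npr1-/- mice and 0.04 in Npr1+/+ mice). Uqcrh, the hinge protein that contacts cytochrome c1, differed by -0.24 ± 0.08 (SE, adjusted p = 0.0211), Uqcrq by -0.29 ± 0.10 (SE, adjusted p = 0.0303) and Uqcr11 by -0.31 ± 0.10 (SE, adjusted p = 0.021) in Npr1-/- mice. Quantile normalization turned the sign of Uqcrh to 0.03. Leaving out 1 array ended the call of Uqcrh for nulliparous Npr1-/- replicate 2 and lactating Npr1-/- replicate 3 (-0.24 to -0.22, adjusted p = 0.0508 to 0.0563 with limma). The calls of Uqcr11 and Uqcrq were each lost for 5 arrays of Npr1-/- mice, nulliparous replicates 1, 2 and 3 and lactating replicates 3 and 4, at -0.29 to -0.27 and -0.29 to -0.24.

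**Figure D3:**
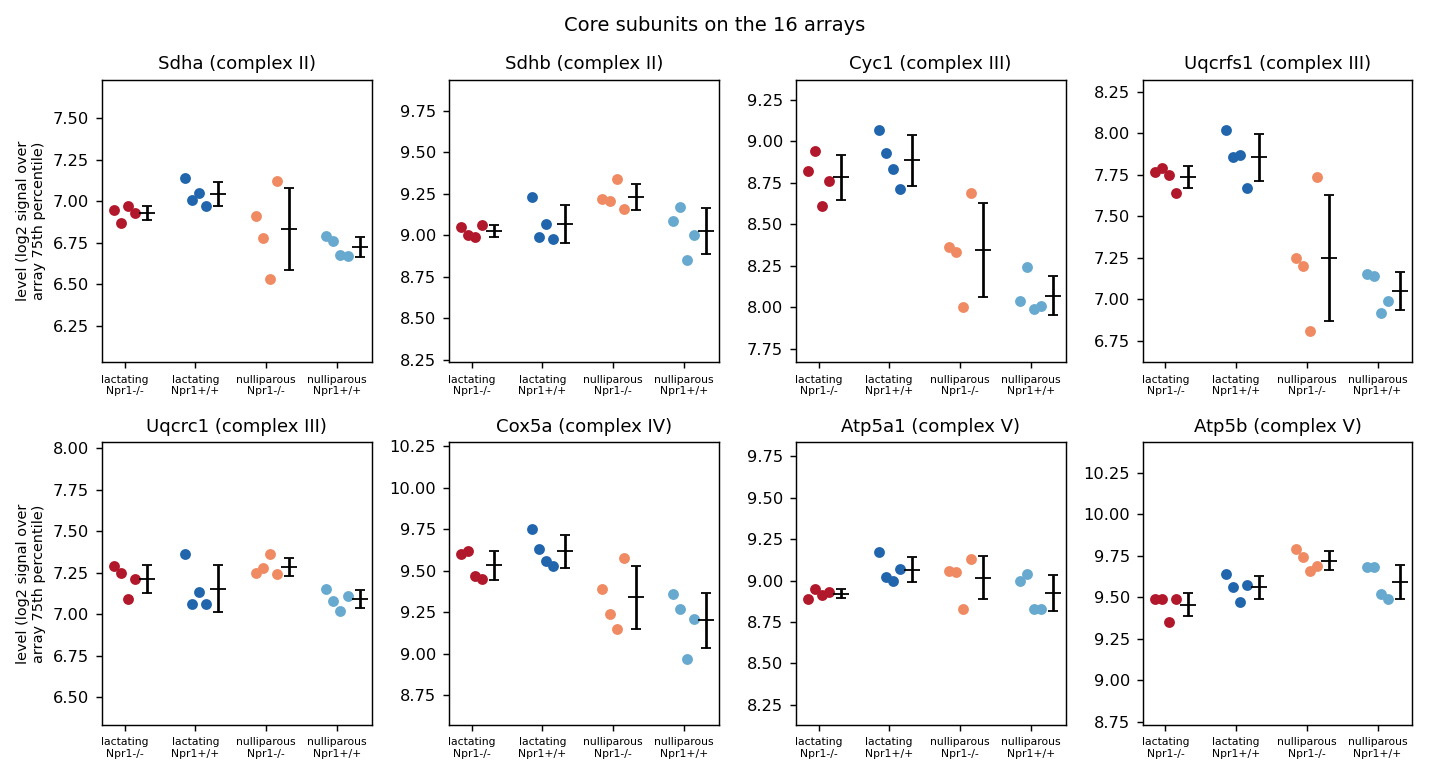
Level (log2 signal over the array's 75th percentile, y axis, with the same span in every panel) of 8 core subunits on the 16 arrays, by group (x axis), with the mean ± SD of 4 mice at the right of each group. Cyc1, Uqcrfs1, Sdha and Cox5a lie higher in every lactating than in every nulliparous Npr1+/+ mouse, whereas Sdhb, Uqcrc1, Atp5a1 and Atp5b overlap in that genotype.

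In complex IV, 4 of 17 members rose and 7 fell in Npr1-/- mice (median -0.09), and 6 rose and 2 fell in Npr1+/+ mice (median 0.12). Under median scaling 6 rose in Npr1-/- mice and 9 in Npr1+/+ mice, and 0 fell in either, with 7 and 9 at an unadjusted p under 0.05 in limma. Quantile normalization gave 6 rises and 3 falls in Npr1-/- mice and 6 and 1 in Npr1+/+ mice. These counts stand beside 25.5% of all genes that rose and 18.6% that fell in Npr1-/- mice under the 75th percentile. In Npr1+/+ mice these shares were 31.8% and 18.5%, and those under the other scalings are given above. Without the dim Cox4i2, Cox6b2 and Cox7b2, 3 of 14 rose and 6 fell in Npr1-/- mice and 5 rose and 2 fell in Npr1+/+ mice. Under the 75th percentile, the muscle forms Cox6a2, Cox7a1 and Cox8b fell in Npr1-/- mice and Cox6a2 also fell in Npr1+/+ mice. The widely expressed forms Cox6a1, Cox6b1 and Cox8a rose in both genotypes, whereas the widely expressed Cox4i1 fell in Npr1-/- mice and Cox7a2 was called in neither. Cox5a, which sits on the matrix side of the catalytic core, had levels of 9.60, 9.62, 9.47 and 9.45 in lactating Npr1-/- mice, against 9.39, 9.24, 9.15 and 9.58 in nulliparous Npr1-/- mice. In the other genotype its levels were 9.75, 9.63, 9.56 and 9.53 in lactating Npr1+/+ mice, against 9.36, 9.27, 8.97 and 9.21 in nulliparous Npr1+/+ mice. Wild-type groups did not overlap and Cox5a rose there by 0.42 ± 0.11 (SE, adjusted p = 0.00466), with 0.20 ± 0.11 and no call in Npr1-/- mice. Cox5b, which binds zinc, fell in Npr1-/- mice by the 75th percentile, at -0.32 ± 0.08 (SE, adjusted p = 0.00605), and was not called in Npr1+/+ mice, at -0.06 ± 0.08.

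Cox6c had levels of 8.51, 8.52, 8.44 and 8.45 in lactating Npr1-/- mice, against 8.96, 8.91, 8.83 and 8.64 in nulliparous Npr1-/- mice. Its wild-type levels were 8.65, 8.52, 8.42 and 8.48 in lactating Npr1+/+ mice, against 8.94, 8.85, 8.59 and 8.75 in nulliparous Npr1+/+ mice. Lactating mice lay below nulliparous mice without overlap in Npr1-/- mice and with overlap in Npr1+/+ mice. Under the 75th percentile Cox6c fell, at -0.35 ± 0.09 (SE, adjusted p = 0.00662) in Npr1-/- mice and -0.27 ± 0.09 (SE, adjusted p = 0.0242) in Npr1+/+ mice. The Npr1+/+ call was lost without nulliparous replicate 1 or 2 or lactating replicate 3 or 4 (-0.25 to -0.22, adjusted p = 0.055 to 0.0796 with limma). Cox7c rose in Npr1+/+ mice by 0.46 ± 0.15 (SE, adjusted p = 0.018), but its second probe gave -0.07 there. The call was lost without nulliparous Npr1+/+ replicate 3 (0.32, adjusted p = 0.0546 with limma). The mean of its 3 probes, which include a dim probe at a mean level of -1.76, turned the difference to -0.58 (adjusted p = 0.262 in limma). The rise of Cox7c is thus uncertain. Cox7a2l, a factor of the joining of complexes III and IV, was called in neither genotype, at -0.09 ± 0.08 in Npr1-/- mice and 0.12 ± 0.08 in Npr1+/+ mice, while its dimmest probe gave 0.80 in Npr1-/- mice and 1.16 in Npr1+/+ mice.

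For 6 subunits of complex IV the array measured a muscle or tissue-restricted form and a widely expressed form. The log2 ratio of the 2 probes within an array is a balance that no scaling by a single factor per array can move. A shift that depends on brightness can move it, since the 2 probes of a pair differed in brightness. Differences with lactation were related to brightness among the members, as given below, and the part of this in the balances was not tested. The change of a balance between groups was tested with an exact two-sided permutation test over arrays. With 4 mice against 4 the smallest p is 0.0286, and over the 24 tests (6 pairs and 4 comparisons) 9 reached it and 0 had an adjusted p under 0.05. All adjusted values at the smallest p were 0.0762, so no balance passed the correction. A balance at the smallest p could pass only if most of the 24 tests reached it. The lack of a call here is therefore no sign that a balance was unchanged. In an alternative added after the data were seen, the balances were fitted with limma beside all genes, and those adjusted p-values are given below as limma's.

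For subunit 6a, Cox6a2, the heart and skeletal muscle form, had levels of 10.30, 10.27, 10.18 and 10.23 in lactating Npr1-/- mice, against 10.77, 10.71, 10.89 and 10.30 in nulliparous Npr1-/- mice. Its wild-type levels were 10.46, 10.28, 10.30 and 10.38 in lactating Npr1+/+ mice, against 10.77, 10.73, 10.51 and 10.58 in nulliparous Npr1+/+ mice. Cox6a1, the widely expressed form, had 7.94, 8.06, 7.86 and 7.92 in lactating Npr1-/- mice, against 7.75, 7.57, 7.46 and 7.76 in nulliparous Npr1-/- mice. In the other genotype Cox6a1 had 8.15, 8.03, 7.99 and 8.11 in lactating Npr1+/+ mice, against 7.55, 7.66, 7.29 and 7.52 in nulliparous Npr1+/+ mice. Cox6a1 groups did not overlap in either genotype, and Cox6a2 overlapped only through nulliparous Npr1-/- replicate 4. Under the 75th percentile Cox6a2 fell, at -0.43 ± 0.11 (SE, adjusted p = 0.0073) in Npr1-/- mice and -0.29 ± 0.11 (SE, adjusted p = 0.0396) in Npr1+/+ mice, and quantile normalization turned it to 0.14 in Npr1-/- mice and 0.05 in Npr1+/+ mice. The Npr1+/+ call of Cox6a2 was lost without nulliparous replicate 1 or 2 or lactating replicate 2, 3 or 4 (-0.30 to -0.25). Cox6a1 rose by 0.31 ± 0.09 (SE, adjusted p = 0.017) in Npr1-/- mice and 0.57 ± 0.09 (SE, adjusted p = 0.00033) in Npr1+/+ mice. The Npr1-/- call of Cox6a1 was lost without nulliparous replicate 3 or lactating replicate 2 (0.25 to 0.27).

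Within arrays, the balance of Cox6a2 over Cox6a1 was 2.36, 2.21, 2.32 and 2.31 in lactating Npr1-/- mice, against 3.02, 3.13, 3.43 and 2.54 in nulliparous Npr1-/- mice. In the other genotype it was 2.30, 2.24, 2.31 and 2.28 in lactating Npr1+/+ mice, against 3.22, 3.07, 3.23 and 3.05 in nulliparous Npr1+/+ mice. All 8 lactating mice lay below all 8 nulliparous mice, nulliparous Npr1-/- replicate 4 being nearest to them. The mean balance was lower, by a difference of -0.73 in Npr1-/- mice and -0.86 in Npr1+/+ mice (exact permutation p = 0.0286 and adjusted p = 0.0762 for each), a ratio 1.66 and 1.81 times lower. Limma's adjusted p was 0.00133 in Npr1-/- mice and 0.000264 in Npr1+/+ mice. Without nulliparous Npr1-/- replicate 4 the Npr1-/- value was -0.90. Quantile normalization gave -0.24 in Npr1-/- mice and -0.48 in Npr1+/+ mice.

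Subunit 8 showed the same order of its forms. Cox8b, the muscle form, had levels of 9.19, 9.27, 9.08 and 9.09 in lactating Npr1-/- mice, against 9.60, 9.58, 9.64 and 9.27 in nulliparous Npr1-/- mice. Its wild-type levels were 9.57, 9.42, 9.35 and 9.38 in lactating Npr1+/+ mice, against 9.52, 9.54, 9.24 and 9.51 in nulliparous Npr1+/+ mice. Groups overlapped in Npr1-/- mice by nulliparous replicate 4 alone and in Npr1+/+ mice across several arrays. Cox8b fell in Npr1-/- mice under the 75th percentile, at -0.36 ± 0.10 (SE, adjusted p = 0.00964), and was not called in Npr1+/+ mice, at -0.02 ± 0.10. Cox8a, the widely expressed form, had 7.81, 7.96, 7.86 and 7.94 in lactating Npr1-/- mice, against 7.56, 7.56, 7.73 and 7.85 in nulliparous Npr1-/- mice. In the other genotype Cox8a had 8.02, 7.86, 7.98 and 8.01 in lactating Npr1+/+ mice, against 7.56, 7.49, 7.40 and 7.66 in nulliparous Npr1+/+ mice. Only the wild-type groups were free of overlap. Cox8a rose by 0.22 ± 0.08 (SE, adjusted p = 0.0449) in Npr1-/- mice, a call lost for 11 of the 16 arrays left out (0.18 to 0.24), namely nulliparous replicates 1, 2 and 3 and lactating replicates 2, 3 and 4 of Npr1-/- mice and nulliparous replicates 1 and 2 and lactating replicates 1, 3 and 4 of Npr1+/+ mice, and by 0.44 ± 0.08 (SE, adjusted p = 0.000778) in Npr1+/+ mice.

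The balance of Cox8b over Cox8a was 1.38, 1.31, 1.22 and 1.15 in lactating Npr1-/- mice, against 2.04, 2.01, 1.92 and 1.42 in nulliparous Npr1-/- mice. In Npr1+/+ mice it was 1.56, 1.56, 1.37 and 1.38 in lactating Npr1+/+ mice, against 1.96, 2.05, 1.83 and 1.85 in nulliparous Npr1+/+ mice. Lactating and nulliparous mice did not overlap within a genotype. The mean balance was lower, by a difference of -0.58 in Npr1-/- mice and -0.46 in Npr1+/+ mice (exact permutation p = 0.0286 and adjusted p = 0.0762 for each; limma's adjusted p = 0.00224 and 0.00626). Without nulliparous Npr1-/- replicate 4 the first was -0.73. Quantile normalization gave -0.33 in Npr1-/- mice and -0.31 in Npr1+/+ mice.

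For subunit 7a, Cox7a1, the muscle form, had levels of 9.82, 9.89, 9.75 and 9.76 in lactating Npr1-/- mice, against 10.08, 9.96, 10.39 and 10.05 in nulliparous Npr1-/- mice. For Npr1+/+ mice the levels were 10, 9.84, 9.87 and 9.96 in lactating Npr1+/+ mice, against 10.01, 10.05, 9.80 and 10.11 in nulliparous Npr1+/+ mice. Lactating Npr1-/- mice all lay below nulliparous Npr1-/- mice, and the wild-type groups overlapped. Cox7a1 fell in Npr1-/- mice under the 75th percentile, at -0.31 ± 0.10 (SE, adjusted p = 0.0172), a call lost without nulliparous Npr1-/- replicate 3 (-0.22, adjusted p = 0.0517 with limma), and quantile normalization turned it to 0.13. Cox7a2, the widely expressed form, had 7.13, 7.35, 7.29 and 7.14 in lactating Npr1-/- mice, against 7.31, 7.27, 7.01 and 7.16 in nulliparous Npr1-/- mice. Among Npr1+/+ mice Cox7a2 had 7.47, 7.25, 7.14 and 7.27 in lactating Npr1+/+ mice, against 7.21, 7.16, 6.95 and 7.07 in nulliparous Npr1+/+ mice. Its groups overlapped and it was called in neither genotype, at 0.04 ± 0.10 in Npr1-/- mice and 0.18 ± 0.10 in Npr1+/+ mice. The balance of Cox7a1 over Cox7a2 was 2.69, 2.54, 2.46 and 2.63 in lactating Npr1-/- mice, against 2.77, 2.69, 3.38 and 2.89 in nulliparous Npr1-/- mice. In Npr1+/+ mice it was 2.53, 2.59, 2.73 and 2.69 in lactating Npr1+/+ mice, against 2.80, 2.89, 2.84 and 3.04 in nulliparous Npr1+/+ mice. Its mean was lower, by a difference of -0.35 in Npr1-/- mice (exact permutation p = 0.0571, adjusted p = 0.125), where lactating replicate 1 met nulliparous replicate 2, and by a difference of -0.26 in Npr1+/+ mice (exact permutation p = 0.0286, adjusted p = 0.0762), where the groups did not overlap. Limma's adjusted p was 0.0349 in Npr1-/- mice and 0.1 in Npr1+/+ mice. Quantile normalization brought the difference to 0 in Npr1-/- mice and turned it to 0.05 in Npr1+/+ mice, and within slides the Npr1-/- value was -0.11 on slide 1 and -0.59 on slide 2.

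Subunit 4 has a widely expressed form, Cox4i1, and a lung form that responds to low oxygen, Cox4i2. Cox4i2 had levels of 1.86, 1.58, 1.58 and 1.76 in lactating Npr1-/- mice, against 1.16, 1.01, 1.66 and 1.41 in nulliparous Npr1-/- mice. Wild-type levels were 1.65, 1.81, 1.72 and 1.83 in lactating Npr1+/+ mice, against 1.40, 1.38, 1.26 and 1.36 in nulliparous Npr1+/+ mice. Nulliparous Npr1-/- replicate 3 overlapped the lactating mice, and the wild-type groups did not overlap. Cox4i2 rose by 0.39 ± 0.12 (SE, adjusted p = 0.0174) in Npr1-/- mice and 0.41 ± 0.12 (SE, adjusted p = 0.0119) in Npr1+/+ mice. The first call was lost without nulliparous Npr1-/- replicate 1 or 2 or lactating replicate 1 (0.29 to 0.34). Cox4i1 had 9.58, 9.56, 9.34 and 9.38 in lactating Npr1-/- mice, against 9.90, 9.77, 9.90 and 9.52 in nulliparous Npr1-/- mice. The wild type gave Cox4i1 levels of 9.68, 9.57, 9.51 and 9.54 in lactating Npr1+/+ mice, against 9.78, 9.82, 9.52 and 9.66 in nulliparous Npr1+/+ mice. Cox4i1 fell in Npr1-/- mice under the 75th percentile, at -0.31 ± 0.10 (SE, adjusted p = 0.0246), was turned to 0.16 by quantile normalization, and was not called in Npr1+/+ mice, at -0.12 ± 0.10. Its call was lost without nulliparous Npr1-/- replicate 1, 2 or 3 or lactating replicate 3 or 4 (-0.31 to -0.26). The balance of Cox4i2 over Cox4i1 was -7.72, -7.98, -7.76 and -7.61 in lactating Npr1-/- mice, against -8.73, -8.77, -8.24 and -8.11 in nulliparous Npr1-/- mice. In Npr1+/+ mice it was -8.03, -7.76, -7.80 and -7.70 in lactating Npr1+/+ mice, against -8.39, -8.43, -8.26 and -8.31 in nulliparous Npr1+/+ mice. Lactating mice lay above nulliparous mice without overlap in both genotypes, by 0.69 in Npr1-/- mice and 0.52 in Npr1+/+ mice (exact permutation p = 0.0286 and adjusted p = 0.0762 for each; limma's adjusted p = 0.00191 and 0.00668). Quantile normalization gave 0.17 in Npr1-/- mice and 0.23 in Npr1+/+ mice, and without nulliparous Npr1-/- replicate 4 the first was 0.81.

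Subunit 6b has a widely expressed form, Cox6b1, and a testis form, Cox6b2. Cox6b1 had levels of 6.13, 6.31, 6.23 and 6.20 in lactating Npr1-/- mice, against 5.46, 5.52, 5.74 and 6.08 in nulliparous Npr1-/- mice. Its levels in the wild type were 6.38, 6.18, 6.32 and 6.21 in lactating Npr1+/+ mice, against 5.56, 5.59, 5.17 and 5.70 in nulliparous Npr1+/+ mice. Neither genotype showed overlap, and Cox6b1 rose by 0.52 ± 0.14 (SE, adjusted p = 0.00735) in Npr1-/- mice and 0.77 ± 0.14 (SE, adjusted p = 0.000468) in Npr1+/+ mice. It was the only member called in Npr1-/- mice whose call held under every alternative except within a single slide. In Npr1+/+ mice this held for 13 of the 18 members called, all of them rises, which median scaling could end less readily than falls. Cox6b2 had -0.92, -0.58, -0.61 and -0.76 in lactating Npr1-/- mice, against -0.26, -0.39, -0.07 and 0.05 in nulliparous Npr1-/- mice. Among Npr1+/+ mice Cox6b2 had -0.33, -1.18, -0.52 and -0.53 in lactating Npr1+/+ mice, against -0.53, -0.62, -0.77 and -0.75 in nulliparous Npr1+/+ mice. Npr1-/- groups did not overlap and wild-type groups did. Cox6b2 fell in Npr1-/- mice, at -0.55 ± 0.16 (SE, adjusted p = 0.0127), a call lost under median scaling, and was not called in Npr1+/+ mice, at 0.03 ± 0.16. The balance of Cox6b2 over Cox6b1 was -7.05, -6.89, -6.84 and -6.95 in lactating Npr1-/- mice, against -5.72, -5.91, -5.81 and -6.03 in nulliparous Npr1-/- mice. In Npr1+/+ mice it was -6.72, -7.36, -6.84 and -6.74 in lactating Npr1+/+ mice, against -6.09, -6.22, -5.94 and -6.46 in nulliparous Npr1+/+ mice. Groups did not overlap and the mean was lower, by a difference of -1.06 in Npr1-/- mice and -0.74 in Npr1+/+ mice (exact permutation p = 0.0286 and adjusted p = 0.0762 for each; limma's adjusted p = 0.000433 and 0.000783). Quantile normalization gave -1.05 in Npr1-/- mice and -0.58 in Npr1+/+ mice.

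Subunit 7b has a widely expressed form, Cox7b, and a testis form, Cox7b2, whose probe was near background. Cox7b had levels of 8.61, 8.71, 8.61 and 8.54 in lactating Npr1-/- mice, against 8.81, 8.79, 8.74 and 8.67 in nulliparous Npr1-/- mice. For Npr1+/+ mice the levels were 8.87, 8.78, 8.75 and 8.78 in lactating Npr1+/+ mice, against 8.69, 8.76, 8.56 and 8.64 in nulliparous Npr1+/+ mice. Cox7b2 had -3.73, -3.25, -3.81 and -2.93 in lactating Npr1-/- mice, against -3.06, -3.0, -4.80 and -3.77 in nulliparous Npr1-/- mice. The wild type gave Cox7b2 levels of -4.09, -3.46, -3.52 and -2.67 in lactating Npr1+/+ mice, against -3.09, -3.26, -3.31 and -2.91 in nulliparous Npr1+/+ mice. All 4 comparisons of groups overlapped for Cox7b2 and neither gene was called. Their balance was -12.34, -11.96, -12.42 and -11.48 in lactating Npr1-/- mice, against -11.87, -11.79, -13.54 and -12.44 in nulliparous Npr1-/- mice. In Npr1+/+ mice it was -12.96, -12.24, -12.27 and -11.44 in lactating Npr1+/+ mice, against -11.78, -12.02, -11.87 and -11.55 in nulliparous Npr1+/+ mice. Groups overlapped, with differences of 0.36 in Npr1-/- mice and -0.42 in Npr1+/+ mice (exact permutation p = 0.543 and 0.257, adjusted p = 0.766 and 0.441).

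**Figure D4:**
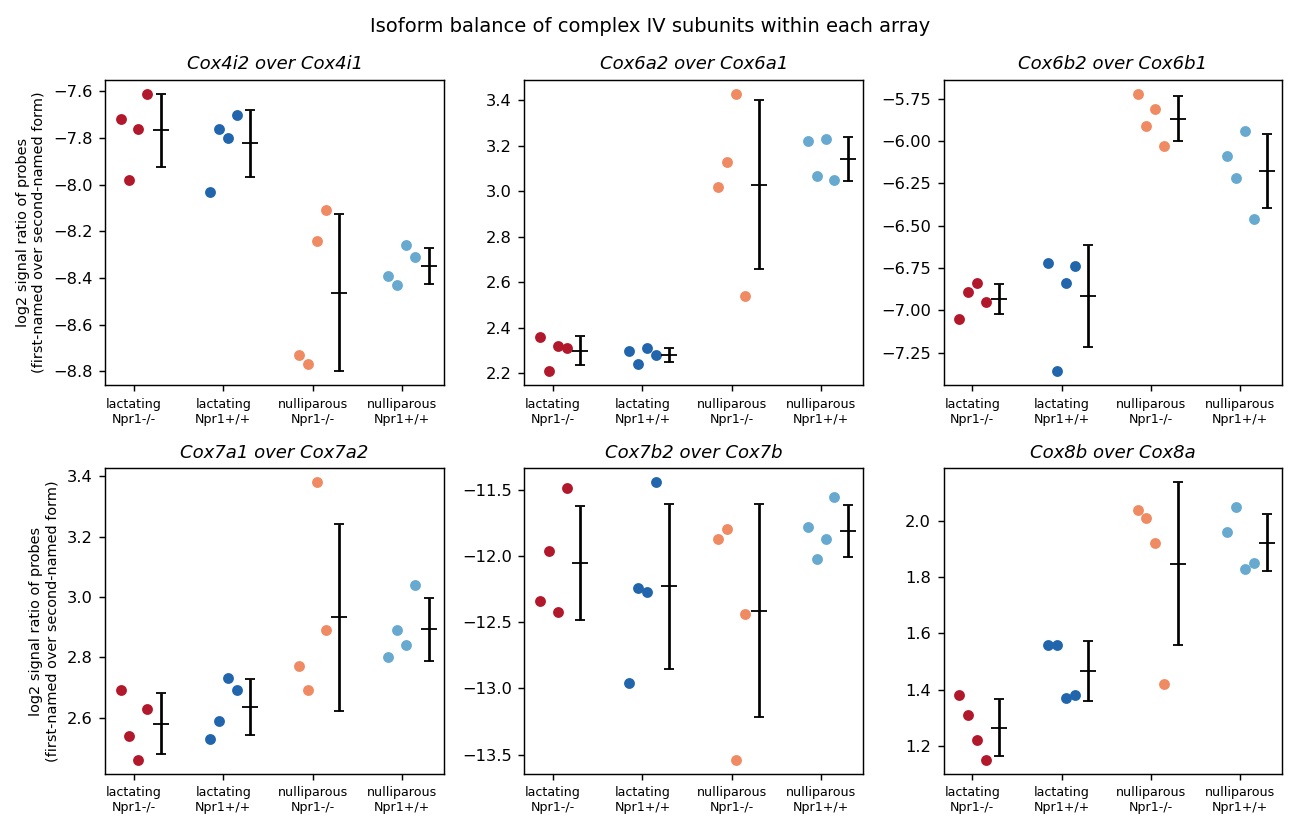
Log2 ratio of the probes of 2 forms of a complex IV subunit within each array (y axis, a range of its own in each panel), by group (x axis), with the mean ± SD of 4 mice at the right of each group. For Cox6a2 over Cox6a1 the lactating mice lie between 2.21 and 2.36 and the nulliparous mice between 2.54 and 3.43, and in the Cox7b2 over Cox7b panel the groups overlap.

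For no balance did the difference between genotypes in the lactation change pass the test. The interaction was 0.13 ± 0.19 (SE) for Cox6a2 over Cox6a1, -0.12 ± 0.17 for Cox8b over Cox8a, -0.09 ± 0.18 for Cox7a1 over Cox7a2, 0.17 ± 0.20 for Cox4i2 over Cox4i1, -0.32 ± 0.20 for Cox6b2 over Cox6b1 and 0.78 ± 0.52 for Cox7b2 over Cox7b, with limma adjusted p from 0.825 to 0.945. Between genotypes within a state, no balance differed with an adjusted p under 0.05 in the exact permutation test (lowest adjusted p 0.125). With 4 mice a group that test could hardly pass, and limma's lowest adjusted p for these comparisons was 0.574.

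In complex V, 1 of 17 members rose and 7 fell in Npr1-/- mice (median -0.15), and 3 rose and 1 fell in Npr1+/+ mice (median 0.07). Under median scaling 3 rose and 1 fell in Npr1-/- mice and 8 rose and 0 fell in Npr1+/+ mice (9 at an unadjusted p under 0.05 in limma). Quantile normalization gave 4 rises and 0 falls in each (5 members at an unadjusted p under 0.05 in Npr1-/- mice and 7 in Npr1+/+ mice in limma). Over all genes, 25.5% rose and 18.6% fell in Npr1-/- mice under the 75th percentile. In Npr1+/+ mice these shares were 31.8% and 18.5%, and those under the other scalings are given above. Atp5a1, the alpha subunit, had levels of 8.89, 8.95, 8.91 and 8.93 in lactating Npr1-/- mice, against 9.06, 9.05, 8.83 and 9.13 in nulliparous Npr1-/- mice. Wild-type levels were 9.17, 9.02, 9.0 and 9.07 in lactating Npr1+/+ mice, against 9.0, 9.04, 8.83 and 8.83 in nulliparous Npr1+/+ mice. Groups overlapped and it was called in neither genotype, at -0.10 ± 0.08 in Npr1-/- mice and 0.14 ± 0.08 in Npr1+/+ mice. Atp5b, the beta subunit that holds the catalytic sites, had 9.49, 9.49, 9.35 and 9.49 in lactating Npr1-/- mice, against 9.79, 9.74, 9.66 and 9.69 in nulliparous Npr1-/- mice. Among Npr1+/+ mice Atp5b had 9.64, 9.56, 9.47 and 9.57 in lactating Npr1+/+ mice, against 9.68, 9.68, 9.52 and 9.49 in nulliparous Npr1+/+ mice. Lactating Npr1-/- mice all lay below nulliparous Npr1-/- mice, and Atp5b fell there under the 75th percentile, at -0.27 ± 0.07 (SE, adjusted p = 0.00852). Quantile normalization turned it to 0.16, and in Npr1+/+ mice it was not called, at -0.03 ± 0.07.

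Atp5e, the epsilon subunit of the central stalk, was the one fall also called under median scaling, and it had levels of 9.10, 9.11, 8.91 and 8.95 in lactating Npr1-/- mice, against 9.69, 9.60, 9.60 and 9.18 in nulliparous Npr1-/- mice. Its levels in the wild type were 9.26, 9.14, 9.03 and 9.13 in lactating Npr1+/+ mice, against 9.60, 9.57, 9.26 and 9.51 in nulliparous Npr1+/+ mice. Lactating and nulliparous mice did not overlap in either genotype, nulliparous Npr1-/- replicate 4 and nulliparous Npr1+/+ replicate 3 being nearest to the lactating mice. Atp5e fell, at -0.50 ± 0.11 (SE, adjusted p = 0.00315) in Npr1-/- mice and -0.34 ± 0.11 (SE, adjusted p = 0.0198) in Npr1+/+ mice. Median scaling kept the call in Npr1-/- mice and ended it in Npr1+/+ mice, and quantile normalization ended it in both, at -0.24 (adjusted p = 0.119 in limma) in Npr1-/- mice and -0.24 (adjusted p = 0.111) in Npr1+/+ mice. The Npr1+/+ call was also lost without nulliparous replicate 1 or 2 or lactating replicate 3 (-0.31 to -0.30). The gamma and delta subunits of the stalk, Atp5c1 and Atp5d, were called in neither genotype, at -0.15 ± 0.09 and -0.06 ± 0.07 in Npr1-/- mice and 0.02 ± 0.09 and 0.15 ± 0.07 in Npr1+/+ mice.

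Atp5pb, subunit b of the peripheral stalk, had levels of 7.03, 7.34, 7.37 and 7.12 in lactating Npr1-/- mice, against 6.73, 6.60, 6.01 and 7.34 in nulliparous Npr1-/- mice. For Npr1+/+ mice the levels were 7.02, 6.82, 6.90 and 6.81 in lactating Npr1+/+ mice, against 6.70, 6.59, 6.38 and 6.43 in nulliparous Npr1+/+ mice. Nulliparous Npr1-/- mice were spread from 6.01 to 7.34, with replicate 4 inside the lactating range, and the wild-type groups did not overlap. Atp5pb rose in Npr1-/- mice by 0.54 ± 0.20 (SE, adjusted p = 0.0382) and was not called in Npr1+/+ mice, at 0.36 ± 0.20. That call was lost without nulliparous Npr1-/- replicate 1, 2 or 3 or lactating replicate 2, 3 or 4 (0.32 to 0.57, adjusted p = 0.0563 to 0.115 with limma). Of the other stalk and membrane subunits, Atp5h (subunit d), Atp5k (subunit e), Atp5j2 (subunit f) and Atp5o (the oligomycin sensitivity protein) fell in Npr1-/- mice under the 75th percentile, at -0.37 ± 0.10, -0.31 ± 0.09, -0.29 ± 0.09 and -0.23 ± 0.07. The call of Atp5k was lost without nulliparous Npr1-/- replicate 3 (-0.26) and that of Atp5o without replicate 1 (-0.21), and the second probe of Atp5j2 gave 0.06. Atp5md, a small membrane subunit, rose in Npr1+/+ mice by 0.37 ± 0.09 (SE, adjusted p = 0.00293).

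The proton-carrying c subunit is encoded by Atp5g1, Atp5g2 and Atp5g3, which give the same mature protein, and probes of such close copies may share signal. Atp5g3 was called in opposite directions in the 2 genotypes, with levels of 9.26, 9.25, 9.23 and 9.21 in lactating Npr1-/- mice, against 9.41, 9.40, 9.38 and 9.46 in nulliparous Npr1-/- mice. Wild-type levels were 9.49, 9.37, 9.41 and 9.40 in lactating Npr1+/+ mice, against 9.32, 9.27, 9.10 and 9.25 in nulliparous Npr1+/+ mice. Neither genotype showed overlap. The difference was -0.17 ± 0.06 (SE, adjusted p = 0.0384) in Npr1-/- mice and 0.18 ± 0.06 (SE, adjusted p = 0.028) in Npr1+/+ mice, but median scaling gave 0.01 and quantile normalization 0.14 in Npr1-/- mice. Over the 30 alternatives of the Npr1-/- value the adjusted p ran from 0.00911 to 0.954 (limma), and leaving out any of 7 arrays ended that call (-0.18 to -0.17), namely nulliparous replicates 1 and 2 and all 4 lactating replicates of Npr1-/- mice and nulliparous Npr1+/+ replicate 2. Without nulliparous replicate 3 or lactating replicate 1 or 3 the Npr1+/+ call was lost (0.14 to 0.18), and quantile normalization ended it too, at 0.23 (adjusted p = 0.0773 in limma). The interaction was -0.36 ± 0.09 (SE, adjusted p = 0.355 in limma over all genes) and did not pass. Atp5g2 rose in Npr1+/+ mice by 0.43 ± 0.09 (SE, adjusted p = 0.00138), with 0.17 ± 0.09 and no call in Npr1-/- mice, and Atp5g1 was called in neither, at -0.15 ± 0.09 in Npr1-/- mice and 0.07 ± 0.09 in Npr1+/+ mice.

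Differences with lactation were related to the brightness of the probe. Over the 44 members with a mean level above 4, the difference and the level correlated across genes at r = -0.60 in Npr1-/- mice (Spearman's rho = -0.69) and -0.50 in Npr1+/+ mice (rho = -0.53). The corresponding r over 2132 genes with a level above 4 was -0.20 in Npr1-/- mice and -0.14 in Npr1+/+ mice, and over all 14060 genes -0.065 in Npr1-/- mice and -0.001 in Npr1+/+ mice. The ranges of level are not matched, since the members start at 5.65 and the 2132 genes at 4, so these r are not directly comparable. All points of a panel share the same 8 arrays and genes are not independent replicates, so these are descriptions. Split by brightness into 3 parts, the brightest (14 members, levels 9.07 to 10.48) had a median difference of -0.30 in Npr1-/- mice and -0.06 in Npr1+/+ mice. The middle part (15 members) had -0.12 in Npr1-/- mice and 0.13 in Npr1+/+ mice, and the dimmest (15 members, levels 5.65 to 7.79) had 0.09 in Npr1-/- mice and 0.32 in Npr1+/+ mice. The part of signal range in this relation was not tested, and no spot was saturated.

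**Figure D5:**
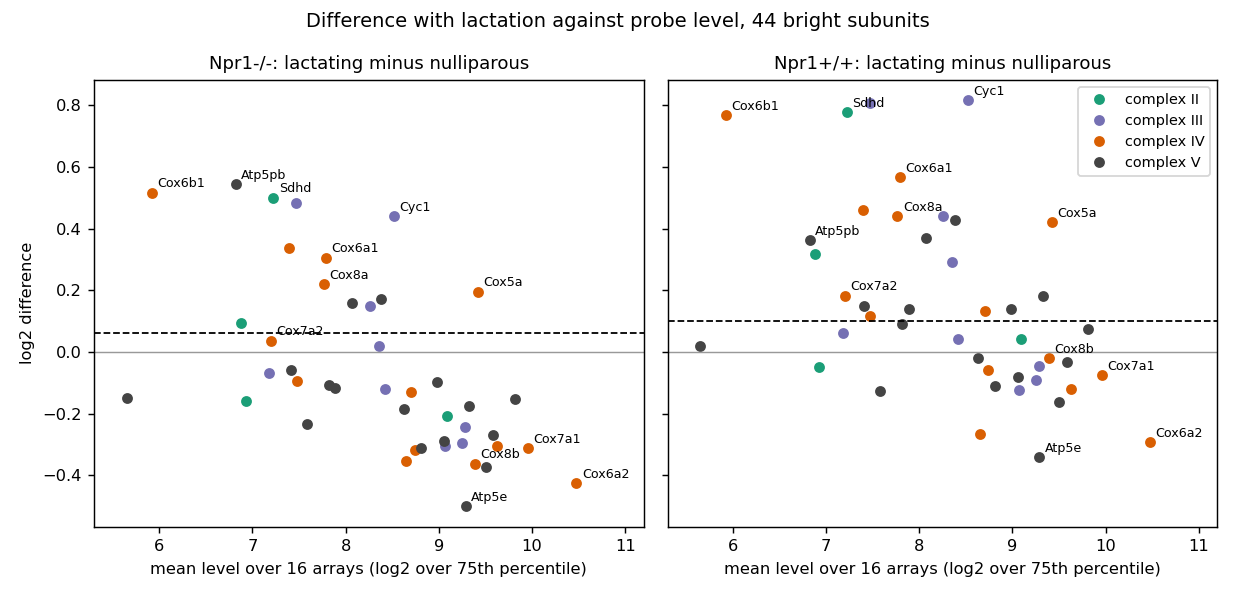
Log2 difference between lactating and nulliparous mice (y axis) against the mean level over 16 arrays (log2 signal over the 75th percentile, x axis) for the 44 members above level 4, in Npr1-/- mice on the left and Npr1+/+ mice on the right, coloured by complex. The solid line marks 0 and the dashed line the median of all genes tested, 0.06 on the left and 0.10 on the right. The median difference of the 14 brightest members is -0.30 on the left and -0.06 on the right, and that of the 15 dimmest 0.09 and 0.32.

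More than 1 bright probe was present for 16 members, and their probes disagreed in sign for 5 in Npr1-/- mice and 7 in Npr1+/+ mice. The median spread between probes of a gene was 0.16 in Npr1-/- mice and 0.12 in Npr1+/+ mice. The spread was largest for Sdhb, at 1.00 in Npr1-/- mice and 1.10 in Npr1+/+ mice. It was followed by Cox7a2l, at 0.89 in Npr1-/- mice and 1.04 in Npr1+/+ mice, and by Uqcr10, at 0.43 in Npr1-/- mice and 0.57 in Npr1+/+ mice. For these 3 genes the dimmest of the bright probes gave the higher difference.

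No member differed between genotypes past the threshold in either state. Between genotypes in lactating mice, 0 of 47 members were called, where 0.199% of all genes were, and 4 had an unadjusted p under 0.05 in limma. In nulliparous mice 0 were called, where 0.0996% of all genes were, and 7 had an unadjusted p under 0.05. In lactating mice 44 of 47 members were lower in Npr1-/- than in Npr1+/+, with a median difference of -0.10, against -0.001 over all genes. In nulliparous mice 45 of 47 were higher in Npr1-/- than in Npr1+/+, with a median of 0.12, against 0.05 over all genes. Without nulliparous Npr1+/+ replicate 3 the median in nulliparous mice was 0.057, and without lactating Npr1+/+ replicate 1 that in lactating mice was -0.062. Median scaling gave 32 of 47 lower in lactating mice (median -0.025, against 0.072 over all genes). It gave 46 of 47 higher in nulliparous mice (median 0.19, against 0.126 over all genes). Under it 0 members in lactating and 9 in nulliparous mice had an unadjusted p under 0.05 in limma. Relative to all genes the medians were -0.097 in lactating and 0.064 in nulliparous mice under both scalings. Quantile normalization gave 28 of 47 lower in lactating mice (median -0.02) and 31 of 47 higher in nulliparous mice (median 0.03). Members of one array share its scaling, so such a count of signs is not a count of independent genes.

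The 4 members with an unadjusted p under 0.05 in lactating mice were lower in Npr1-/- than in Npr1+/+ hearts. Cox8b differed by -0.27 ± 0.10 (SE), Cox5b by -0.23 ± 0.08, Atp5g3 by -0.18 ± 0.06 and Cox7b by -0.17 ± 0.07, with limma adjusted p from 0.353 to 0.439. For these 4 the groups did not overlap. In nulliparous mice the 7 were all higher in Npr1-/-, led by Cox6b2 at 0.50 ± 0.16, with adjusted p of 0.404 to 0.557. Between genotypes, groups did not overlap for 7 of 47 members in lactating mice, beside 7.77% of all genes, and for 5 in nulliparous mice, beside 4.04%. Between states they did not overlap for 16 members in Npr1-/- mice, beside 33.1% of all genes, and for 18 in Npr1+/+ mice, beside 47.4%.

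The interaction, which is the lactation difference in Npr1-/- mice minus that in Npr1+/+ mice, was called for 0 of 47 members, beside 0.0925% of all genes, with 9 at an unadjusted p under 0.05 in limma. It was below 0 for 45 of 47 members, with a median of -0.21, against -0.06 over all genes, and the median was -0.21 under median scaling too. Under quantile normalization the median was -0.03 and 37 of 47 were below 0. Without nulliparous Npr1-/- replicate 4 the median was -0.22, with 0 members called and 17 at an unadjusted p under 0.05 in limma. By complex the median was -0.24 in II, -0.20 in III, -0.22 in IV and -0.21 in V. The shift was not particular to these complexes. Of the lists described below, the interaction was below 0 for 36 of 38 complex I subunits (median -0.245) and 30 of 33 assembly factors (-0.252). It was below 0 for 14 of 14 tricarboxylic acid cycle genes (-0.261), 24 of 24 partners of the chain (-0.268) and 13 of 20 biogenesis regulators (-0.12). All 5 comparisons draw on the same 4 groups, so their values are not independent.

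Other genes of the mitochondrial system were read from lists chosen with earlier results known. The counts of this and the next paragraph stand beside 25.5% of all genes that rose and 18.6% that fell in Npr1-/- mice. In Npr1+/+ mice these shares were 31.8% and 18.5%, and those under the other scalings are given above. Of 33 tested assembly factors of complexes II to V, 23 rose and 1 fell in Npr1-/- mice (median 0.48), and 25 rose and 0 fell in Npr1+/+ mice (26 at an unadjusted p under 0.05 in limma; median 0.68). Those with the largest differences were Taco1, which activates translation of the mitochondrial COX1 message, at 1.62 ± 0.23 (SE) in Npr1-/- mice and 2.00 ± 0.23 in Npr1+/+ mice, Sdhaf3, a maturation factor of Sdhb, at 1.501 ± 0.245 in Npr1-/- mice and 1.855 ± 0.245 in Npr1+/+ mice, Cox10, which makes haem O, at 1.17 ± 0.23 in Npr1-/- mice and 1.65 ± 0.23 in Npr1+/+ mice, and Sdhaf4, an Sdha assembly factor, at 1.13 ± 0.19 in Npr1-/- mice and 1.39 ± 0.19 in Npr1+/+ mice. Under median scaling 25 rose and 0 fell in Npr1-/- mice and 28 rose and 0 fell in Npr1+/+ mice. Of 38 complex I subunits, 6 rose and 13 fell in Npr1-/- mice and 16 rose and 3 fell in Npr1+/+ mice. The falls of complex I subunits depended on the scaling too. Median scaling gave 10 rises and 2 falls in Npr1-/- mice and 21 and 0 in Npr1+/+ mice, and quantile normalization 8 and 3 in Npr1-/- mice and 16 and 2 in Npr1+/+ mice.

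Among 20 regulators of mitochondrial biogenesis 4 rose and 5 fell in Npr1-/- mice, and 7 rose and 5 fell in Npr1+/+ mice, beside 25.5% and 18.6% of all genes in Npr1-/- mice and 31.8% and 18.5% in Npr1+/+ mice. Median scaling gave 7 rises and 3 falls in Npr1-/- mice and 10 and 3 in Npr1+/+ mice. Tfam, which packages and transcribes mitochondrial DNA, rose by 1.08 ± 0.22 (SE) in Npr1-/- mice and 1.30 ± 0.22 in Npr1+/+ mice, and the nuclear receptor Esrrg by 0.81 ± 0.17 in Npr1-/- mice and 1.00 ± 0.17 in Npr1+/+ mice. The coactivator Ppargc1a fell, with differences of -1.17 ± 0.18 in Npr1-/- mice and -0.60 ± 0.18 in Npr1+/+ mice, and Ppargc1b fell, at -0.82 ± 0.22 in Npr1-/- mice and -1.46 ± 0.22 in Npr1+/+ mice. Of 14 tricarboxylic acid cycle genes 6 rose and 3 fell in Npr1-/- mice and 8 rose and 1 fell in Npr1+/+ mice. Among 24 partners of the chain 10 rose and 3 fell in Npr1-/- mice and 17 rose and 2 fell in Npr1+/+ mice. Median scaling gave 7 rises and 1 fall in Npr1-/- mice and 11 and 0 in Npr1+/+ mice for the cycle, and 16 and 2 in Npr1-/- mice and 19 and 0 in Npr1+/+ mice for the partners. Among the partners the ADP/ATP carriers differed in direction. Slc25a4, the heart and muscle carrier, fell, at -0.58 ± 0.12 in Npr1-/- mice and -0.34 ± 0.12 in Npr1+/+ mice, and Slc25a5, a widely expressed carrier, rose by 1.10 ± 0.19 in Npr1-/- mice and 1.42 ± 0.19 in Npr1+/+ mice. Median scaling ended the Npr1+/+ calls of Ppargc1a (-0.41, adjusted p = 0.0894 in limma) and Slc25a4 (-0.16, adjusted p = 0.289).

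Some cell type markers were called with lactation too, and their part in these results was not tested. Their counts stand beside 25.5% of all genes that rose and 18.6% that fell in Npr1-/- mice, and 31.8% and 18.5% in Npr1+/+ mice. Of 11 cardiomyocyte markers, 2 rose and 7 fell in Npr1-/- mice and 3 rose and 3 fell in Npr1+/+ mice, the latter near the shares of all genes. Median scaling gave 3 rises and 3 falls in Npr1-/- mice and 3 and 0 in Npr1+/+ mice, and quantile normalization 3 and 0 in Npr1-/- mice and 4 and 0 in Npr1+/+ mice. Their summed linear level ran from 7320 to 8300 in lactating Npr1-/- mice and from 8450 to 9050 in lactating Npr1+/+ mice, against 8820 to 11600 in nulliparous Npr1-/- mice and 9170 to 11000 in nulliparous Npr1+/+ mice. Of 8 macrophage markers 7 rose and 0 fell in each genotype (limma, 7 at an unadjusted p under 0.05), with summed levels of 47.3 to 56.6 and 41.9 to 49.4 in lactating Npr1-/- and Npr1+/+ mice, against 19.6 to 38.7 and 21.7 to 25.7 in nulliparous ones. Of 4 red cell markers 3 rose in Npr1-/- mice and 2 in Npr1+/+ mice. Of 4 atrial markers tested 3 fell in Npr1-/- mice and 2 in Npr1+/+ mice. Of 5 adipocyte markers 0 rose and 3 fell in Npr1-/- mice, and 2 rose and 0 fell in Npr1+/+ mice (limma, 4 and 3 at an unadjusted p under 0.05). Summed adipocyte levels were 0.318 to 0.532 in lactating Npr1-/- mice and 4.07 to 10.4 in lactating Npr1+/+ mice, against 0.796 to 1.72 and 3.26 to 5.54 in nulliparous ones. Of 4 brown adipocyte markers, Ucp1 and Elovl3 were not well above background on any array. The summed levels of the 4, carried by Cidea (mean log2 level 4.97, against -1.75 for Dio2), were 28.3 to 32.9 and 23.4 to 28.9 in lactating Npr1-/- and Npr1+/+ mice, against 32.2 to 43.8 and 32.2 to 39 in nulliparous ones. Cidea fell under the 75th percentile (-0.38 in Npr1-/- mice and -0.39 in Npr1+/+ mice), calls that median scaling ended, and Dio2 rose in Npr1-/- mice (1.42) and was not called in Npr1+/+ mice (0.30). Of 9 fibroblast markers 5 rose and 1 fell in Npr1-/- mice, and 4 rose and 2 fell in Npr1+/+ mice. Summed fibroblast levels overlapped between all groups (354 to 452 and 356 to 422 in lactating, against 368 to 387 and 345 to 421 in nulliparous mice).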

How the data were processed

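Ventricular RNA of 16 female mice was hybridised to one-colour Agilent arrays, on 2 slides with 2 arrays of each group apiece, from 200 ng of total RNA per the labels' protocols. Per the file headers, Agilent Feature Extraction 10.7.3.1 made the deposited spot intensity, already background-subtracted. A table from the authors held log2 values that correlated at r = 1 with log2 signal minus the 75th percentile, centred on the nulliparous Npr1+/+ mean; how they were made is otherwise not given in the sources used here.

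Here, log2 signal minus the 75th percentile of each array was computed and spots of a probe were averaged. Each gene took its brightest probe, named through RefSeq accessions, and 14060 of 21154 genes with signal well above background throughout 1 group or more were tested with limma 3.58.1 in R 4.3.3 (4 group means, 12 residual degrees of freedom, Benjamini-Hochberg adjustment). The fit was tested on simulated data. Forms of a subunit were compared by exact permutation tests. Named were the form pairs, core subunits, the members with the largest called changes, members whose call the scaling changed and, from other lists, up to 4 genes each; further members were named after their values were seen. The members and lists were chosen with earlier results of these data known. Alternatives covered scaling, background, filter, probe choice, spread, replicate block, slide, the authors' table and left-out arrays. Same-numbered replicates, which share a slide, deviated together little (median r 0.03, from -0.139 to 0.176), against a median of -0.01 for differently numbered ones. An r over 0.1 was seen in 8 of 24 same-numbered and 10 of 72 differently numbered pairs. Arrays were not paired in the main fit. The number of arrays limits the precision.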

Additional observations from a re-analysis of the deposited data

Results flagged for a closer look

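In 5 of the 156 groups of 4 arrays examined, over the members named, 1 array lay far from the other 3 of its group, where chance flags about 1 group in 20. Atp5b was 9.35 on lactating Npr1-/- replicate 3, with the nearest array at 9.49. Atp5k was 8.56 on the same array, with the nearest at 8.64. Cox8b was 9.24 on nulliparous Npr1+/+ replicate 3, with the nearest at 9.51, and Uqcrq was 9.01 on that array, with the nearest at 9.35. Uqcr11 was 8.92 on nulliparous Npr1-/- replicate 4, with the nearest at 9.26. All 5 were low values.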

How the results depend on the processing

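The scaling decided the direction of the member median in Npr1-/- mice, which was 0.061 under median scaling and 0.047 under quantile normalization; in Npr1+/+ mice median scaling gave 0.255, and quantile normalization gave an interaction median of -0.033. Members called in Npr1-/- mice numbered 14 under median scaling and 13 in the fit of the groups compared alone. Within slide 2, 0 members were called in either genotype with lactation (limma, 0 genes in all in Npr1-/- and 86 in Npr1+/+ mice), where 2 arrays a group remain. Signs turned under median scaling for Atp5g3 in Npr1-/- mice (0.007, adjusted p = 0.954), and under quantile normalization for Cox6a2 in Npr1+/+ mice (0.053) and in Npr1-/- mice for Atp5b (0.156), Atp5g3 (0.139), Atp5h (0.039), Cox4i1 (0.162), Cox6a2 (0.14), Cox7a1 (0.13) and Uqcrh (0.03). With the mean of probes Cox7c turned to -0.576 in Npr1+/+ mice (adjusted p = 0.262 in limma). The cause was not tested.

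Between genotypes 0 members were called under any alternative run. Over all genes, calls between genotypes in nulliparous mice numbered 14, against 7 with normexp background, 6 with no filter, 5 with the filter on all 16 arrays, 235 with array weights, 9 with the replicate block and 6 within slide 1. In lactating mice they numbered 28, against 44 with normexp background, 17 with no filter, 18 with the filter on all 16 arrays, 204 with array weights, 16 within slide 1 and 4 within slide 2. For the interaction they numbered 13, against 6 with the filter on all 16 arrays, 70 with array weights, 6 within slide 1 and 1 within slide 2. Leaving out 1 array gave 7 to 20, 13 to 48 and 10 to 20 genes for these 3 comparisons. With lactation it gave 17 to 31 members in Npr1-/- mice, beside 4802 to 7493 of all genes. In Npr1+/+ mice it gave 14 to 19 members, beside 6233 to 7499 of all genes. With the replicate block 24 members were called in Npr1-/- mice and 18 in Npr1+/+ mice, so it changed no other count by over 1.5 times.

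Balances within slides 1 and 2 with lactation in Npr1-/- mice were -0.11 and -0.588 for Cox7a1 over Cox7a2 and -0.319 and 1.041 for Cox7b2 over Cox7b. Between genotypes they were -0.342 and 0.105 for Cox4i2 over Cox4i1 and 0.069 and -1.28 for Cox7b2 over Cox7b in nulliparous mice, and 0.057 and -0.163 for Cox7a1 over Cox7a2 in lactating mice. With limma over all genes, 9 balances passed at unchanged values: in Npr1-/- mice 0.695 (Cox4i2), -0.731 (Cox6a2), -1.063 (Cox6b2), -0.349 (Cox7a1) and -0.583 (Cox8b), and in Npr1+/+ mice 0.524 (Cox4i2), -0.859 (Cox6a2), -0.741 (Cox6b2) and -0.46 (Cox8b).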
